A study of Mus musculus with 5 samples.

Results

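Expression of 10 genes of the fibronectin, hyaluronan and matricellular part of the extracellular matrix (Fn1, Has2, Cd44, Vcan, Sparc, Tnc, Postn, Spp1, Bgn and Dcn) was compared between Mkl2-/- and wild-type embryonic stem cells of the mouse. The 10 belong together by what they encode, and they were chosen with earlier results of these data known. An array feature stood for a gene where the platform annotation gave it that 1 symbol, and 9 of the 10 had such a feature, out of 19938 genes tested in all. Spp1, which encodes osteopontin, had none and has no value here. Each of the 9 had a single feature, so splice forms, which are known for Fn1, Tnc, Cd44 and Vcan, were not separated. The arrays were 3 of undifferentiated Mkl2-/- stem cells and 2 of undifferentiated wild-type stem cells, all of strain C57BL/6, each from its own culture. Mkl2, now called Mrtfb, encodes a myocardin-related coactivator of serum response factor (SRF). All cultures had grown with serum and leukaemia inhibitory factor on gelatin with embryonic fibroblasts as feeders, and the stem cells were then collected while the feeders settled on a dish. How the Mkl2 allele was made, and how many cell lines stand behind each genotype, is not stated in the labels, and the tests therefore measure the spread between cultures.

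Fibronectin is a secreted glycoprotein that cells pull into fibrils through integrin receptors, above all the pair of Itga5 and Itgb1. Hyaluronan is a long sugar polymer made at the plasma membrane by the Has enzymes; Cd44 is its main cell surface receptor, and versican, the product of Vcan, is a large proteoglycan that binds it. Matricellular proteins such as those of Sparc, Tnc, Postn and Spp1 sit in the matrix and tune adhesion and growth factor signalling without building its scaffold. Biglycan and decorin, the products of Bgn and Dcn, are small leucine-rich proteoglycans that bind collagen and TGF-beta.

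Values are log2 expression, and every difference is Mkl2-/- minus wild type on that log2 scale. Background was set at 7.30, the level that 95% of 1027 olfactory receptor genes did not exceed on average. The brightest of 3 features of the targeted gene itself (Mrtfb, feature 10433633) read 9.32, 9.32 and 9.09 on the Mkl2-/- arrays, against 9.80 and 9.75 on the wild-type arrays. Its difference was -0.53, and the other features differed by -0.83 and -0.98. Which part of the gene each feature covers, relative to the deletion, is not given here. Of 18 embryonic stem cell markers, 17 had a mean above background, and Dppa3 lay below it on all 5 arrays. Pearson correlations over the 19938 genes were 0.998 to 0.999 between arrays of a genotype and 0.992 to 0.994 between genotypes.

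Has2, Fn1 and Sparc were lower in Mkl2-/- cells, and no measured member was higher past the threshold. The hyaluronan synthase gene Has2 was 1.70-fold lower, the fibronectin gene Fn1 1.53-fold and Sparc, which encodes a calcium- and collagen-binding matricellular protein, 1.18-fold. At an adjusted p of 0.05 (limma, adjusted over all 19938 genes), 3 of the 9 measured members were thus lower (33.3%), against 6.28% of all genes tested. Since the members were chosen with such results known, that share only describes them. None was higher (1 with a positive difference had an unadjusted p under 0.05), against 2.99% of all genes. In either direction 9.27% of all genes passed. Of those, 1252 were lower and 596 higher, or 1751 and 1483 after quantile normalization. Without regard to a test, 6 members had all Mkl2-/- arrays below both wild-type arrays, which is 66.7% of the members and compares with 16.7% of all genes. For 1 member, Vcan, all Mkl2-/- arrays lay above both wild-type arrays, or 11.1% against 16.9% of all genes. The members' median difference was -0.24, beside 0.02 over all genes. Every call on a gene given here, members and others alike, was lost without wild-type replicate 2, where limma called 0 genes at all (4411 had an unadjusted p under 0.05). There were 964 calls without wild-type replicate 1 and 333, 403 and 448 without Mkl2-/- replicates 1, 2 and 3. In these whole-culture samples, fewer cells of a type and less RNA per cell cannot be told apart.

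**Figure D1:**
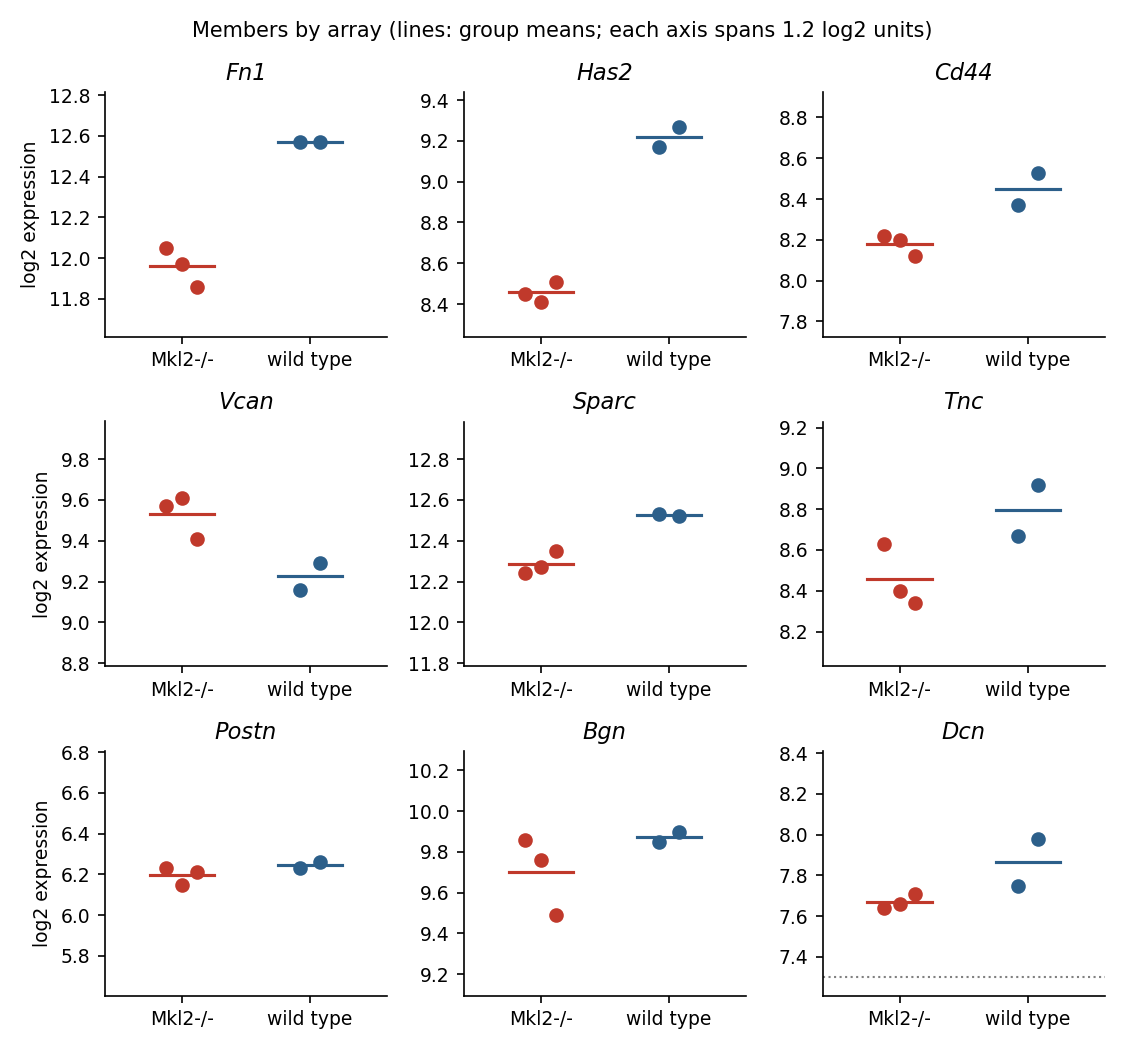
Log2 expression (vertical axes, each spanning the same length) of the 9 measured members on the 3 Mkl2-/- arrays (red) and the 2 wild-type arrays (blue). Points are arrays, lines are group means and the dotted line in the panel of Dcn is the background level of 7.30. The groups lie far apart for Has2 and Fn1, stand close for Tnc and Dcn, and overlap for Bgn and Postn.

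**Figure D2:**
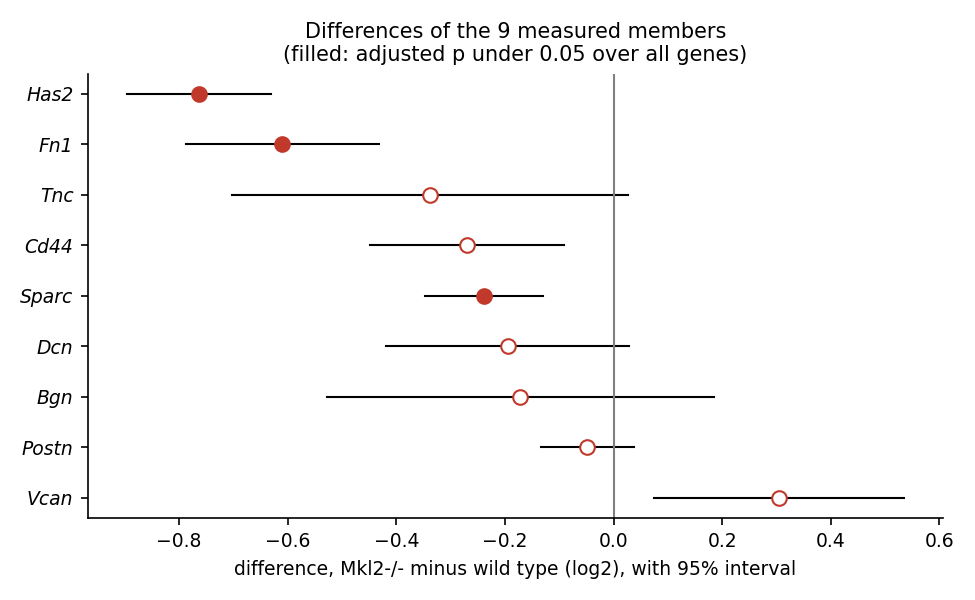
Difference between Mkl2-/- and wild type on the log2 scale (horizontal axis) for each measured member, with its 95% interval from the limma fit. Filled points passed an adjusted p of 0.05 over all genes. Has2 (-0.76), Fn1 (-0.61) and Sparc (-0.24) passed, and Vcan (0.31) was the member with a positive difference.

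Fn1 (feature 10355403, chromosome 1) read 12.05, 11.97 and 11.86 on the Mkl2-/- arrays, against 12.57 and 12.57 on the wild-type arrays. The genotypes were 0.52 apart at their closest arrays, while the Mkl2-/- arrays spanned 0.19 among themselves and the wild-type arrays held the same value. Its mean was 11.96 ± 0.10 in Mkl2-/- and 12.57 ± 0.00 in wild type (SD, n = 3 and 2), a difference of -0.61 ± 0.06 (SE; limma adjusted p = 0.019). Of the 19938 genes, 402 including Fn1 had a difference this low or lower. With 1 array left out at a time the difference stayed between -0.66 and -0.56. It passed only without Mkl2-/- replicate 3 (adjusted p = 0.048), with adjusted p-values of 0.055 and 0.092 without Mkl2-/- replicates 1 and 2 and 0.090 and 0.119 without wild-type replicates 1 and 2. Without limma's moderation of variances Fn1 did not pass either (adjusted p = 0.077).

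Genes of fibronectin receptors and of fibril assembly moved in both directions. Of 20 such genes 6 were lower, 1 was higher and 13 did not pass, and their median difference was -0.02. The calls make up 30% lower and 5% higher, beside 6.28% and 2.99% of all genes. Both chains of the main fibronectin receptor were lower. The alpha chain gene Itga5 read 10.47, 10.56 and 10.49 in Mkl2-/- and 10.92 and 10.91 in wild type, a difference of -0.41 ± 0.03 (SE; limma adjusted p = 0.013). Itgb1, which encodes the beta chain shared by many integrins, read 11.04, 11.05 and 11.06 in Mkl2-/- and 11.25 and 11.26 in wild type (-0.20 ± 0.01; limma adjusted p = 0.0082). Thus the difference of Itgb1 was small but well outside the spread of either genotype. Fbln1, which encodes the fibronectin-binding protein fibulin-1, fell by 0.42 (limma adjusted p = 0.0058). Among genes picked out after their values were seen, the integrin beta chain genes Itgb5 (-0.72) and Itgb8 (-0.42) and Fndc1 (-0.21) also fell. Sdc4, whose heparan sulphate proteoglycan is a co-receptor for fibronectin, was the 1 gene that rose, with 10.10, 10.10 and 10.08 in Mkl2-/- and 9.61 and 9.45 in wild type (0.56 ± 0.05; limma adjusted p = 0.016). Itgav, the alpha chain that partners several of these beta chains, differed by -0.01 with a 95% interval of -0.10 to 0.09.

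In the hyaluronan system the synthase gene Has2 was lower in Mkl2-/- cells, and most other genes did not pass. Has2 (feature 10428707, chromosome 15) read 8.45, 8.41 and 8.51 on the Mkl2-/- arrays, against 9.17 and 9.27 on the wild-type arrays. Each genotype spanned 0.10 and the closest arrays of the 2 genotypes were 0.66 apart. Mean Has2 expression was 8.46 ± 0.05 in Mkl2-/- and 9.22 ± 0.07 in wild type (SD, n = 3 and 2), a difference of -0.76 ± 0.05 (SE; limma adjusted p = 0.0089). This was the lowest difference among the members, and 243 of all 19938 genes, Has2 included, were as low or lower. It stayed between -0.81 and -0.71 when single arrays were left out. The call held without Mkl2-/- replicate 3 (adjusted p = 0.046) and without wild-type replicate 1 (0.042), and did not hold without Mkl2-/- replicate 1 (0.058), Mkl2-/- replicate 2 (0.051) or wild-type replicate 2 (0.065). The other synthase genes, Has1 (0.15) and Has3 (-0.08), lay below background on all 5 arrays, so Has2 was the synthase gene measured above it.

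Cd44 (feature 10485405, chromosome 2) read 8.22, 8.20 and 8.12 in Mkl2-/- and 8.37 and 8.53 in wild type. The genotypes did not overlap, but their closest arrays were 0.15 apart, about as far as the wild-type arrays from each other (0.16). Its difference of -0.27 ± 0.06 (SE, n = 3 and 2; 95% interval -0.45 to -0.09) did not pass over all genes (limma adjusted p = 0.096), and passed after quantile normalization (adjusted p = 0.036) and cyclic loess (adjusted p = 0.035). Vcan (feature 10410931, chromosome 13) read 9.57, 9.61 and 9.41 in Mkl2-/- and 9.16 and 9.29 in wild type. Among the members it alone had its Mkl2-/- arrays on the higher side. The difference was 0.31 ± 0.08 (SE; 95% interval 0.08 to 0.54; limma adjusted p = 0.125), and it too passed after quantile normalization (adjusted p = 0.010) and cyclic loess (adjusted p = 0.031).

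Of 30 further genes of hyaluronan enzymes, binding proteins and receptors, 1 was lower, 1 higher and 28 did not pass. Lower and higher calls were thus 3.33% each, beside 6.28% and 2.99% of all genes. The median of the 30 was 0.03, and 15 had both group means below background. Moesin, encoded by Msn, links the tail of Cd44 to actin, and its gene read 11.23, 11.17 and 11.24 in Mkl2-/- against 11.41 and 11.44 in wild type (-0.21 ± 0.03; limma adjusted p = 0.030). Its relatives Ezr (0.04) and Rdx (-0.02), which encode ezrin and radixin, did not pass. Cemip, which encodes a hyaluronan-degrading protein, passed as higher (0.25 ± 0.02; limma adjusted p = 0.0094) but lay below background on all 5 arrays, so no fold is given. Hmmr, a hyaluronan-binding protein gene (0.15; adjusted p = 0.188), and the link protein gene Hapln4 (0.07; adjusted p = 0.230) did not pass.

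Sparc (feature 10386058, chromosome 11) read 12.24, 12.27 and 12.35 on the Mkl2-/- arrays, against 12.53 and 12.52 on the wild-type arrays. The wild-type values were 0.01 apart and the nearest Mkl2-/- array lay 0.17 below them. The mean was 12.29 ± 0.06 in Mkl2-/- and 12.53 ± 0.01 in wild type (SD, n = 3 and 2). The difference of -0.24 ± 0.04 (SE) passed narrowly (limma adjusted p = 0.045). It kept its direction with any array left out (-0.27 to -0.22), and passed only without Mkl2-/- replicate 3 (adjusted p = 0.044), with 0.122 and 0.154 without Mkl2-/- replicates 1 and 2 and 0.153 and 0.184 without wild-type replicates 1 and 2. Without moderation of variances its adjusted p was 0.127.

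Tnc, which encodes tenascin-C, an anti-adhesive partner of fibronectin, was the most variable member within wild type. Feature 10513739 (chromosome 4) read 8.63, 8.40 and 8.34 in Mkl2-/- and 8.67 and 8.92 in wild type. The closest arrays of the genotypes were 0.04 apart, less than the range within either of them (0.29 and 0.25). Its difference of -0.34 ± 0.13 (SE, n = 3 and 2) had a 95% interval of -0.70 to 0.03 and did not pass (limma adjusted p = 0.249). For Postn, which encodes periostin, all 5 arrays were below background, between 6.15 and 6.26, and no fold is given (feature 10492021, chromosome 3).

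Other matricellular genes fell in 5 of 31 cases, and none rose (1 with a positive difference had an unadjusted p under 0.05 by limma), while the median of the 31 was -0.01. The 5 are 16.1% of the list, whereas 6.28% of all genes were lower and 2.99% higher. Efemp1, which encodes fibulin-3, differed most, with 8.74, 8.49 and 8.56 in Mkl2-/- and 10.34 and 10.48 in wild type (-1.81 ± 0.10; limma adjusted p = 0.0079). Ccn1 (Cyr61), which encodes an integrin ligand of the CCN family, read 10.99, 11.13 and 11.14 in Mkl2-/- and 11.93 and 11.93 in wild type (-0.84 ± 0.06; limma adjusted p = 0.0098). Its family member Ccn2 (Ctgf) read 12.02, 12.11 and 12.12 in Mkl2-/- and 12.22 and 12.12 in wild type, so the genotypes touched and the difference of -0.09 (95% interval -0.23 to 0.05) did not pass. Thbs1, the gene of thrombospondin-1, which activates latent TGF-beta, fell by 0.46, and Mfge8, the gene of an integrin-binding milk fat globule protein, fell by 0.30. The fifth was Ccn4 (Wisp1), named after its values were seen, which was below background on the Mkl2-/- arrays and at least 1.24-fold lower, with arrays below background set to 7.30. Of genes related to the members, Sparcl1 (0.01), Tnr (0.03) and Ibsp (0.00) lay below background on all 5 arrays. Tnxb (0.06, limma adjusted p = 0.417) and Spock2 (-0.01, adjusted p = 0.631) lay above it on all 5 and did not pass. Tgfbi of the same list, named after its values were seen, differed by -0.59 and did not pass (limma adjusted p = 0.064). It read 8.36, 8.62 and 8.69 in Mkl2-/- and 9.16 and 9.14 in wild type.

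**Figure D3:**
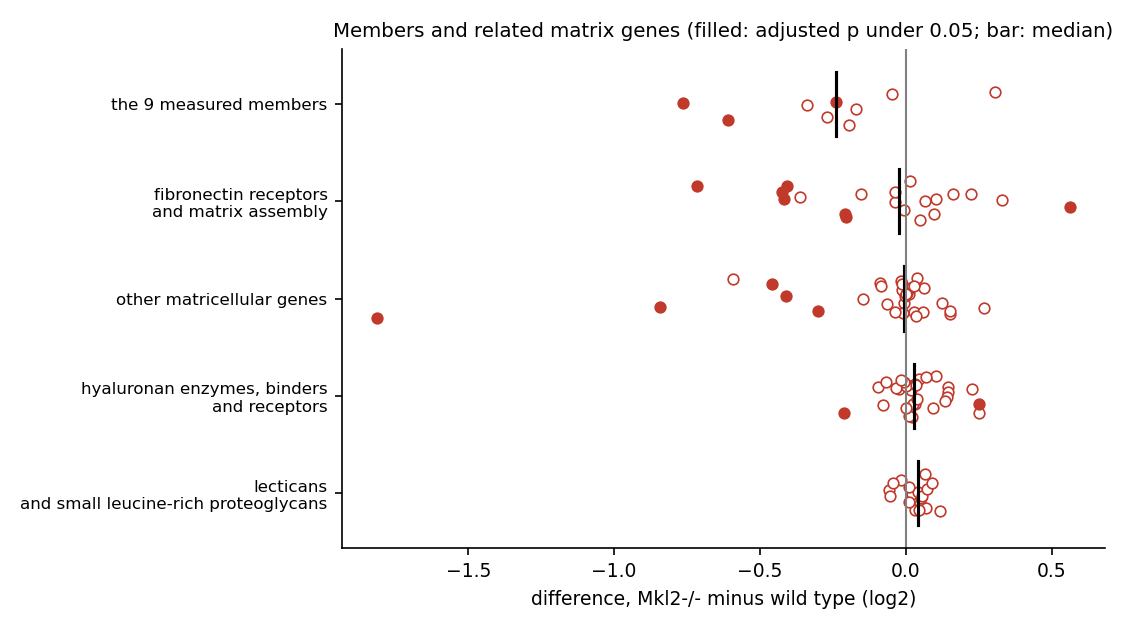
Differences on the log2 scale (horizontal axis) of the 9 measured members and of the genes of 4 related lists, with 1 point per gene. Filled points passed an adjusted p of 0.05 over all genes, and black bars are list medians. The bars of the related lists lie between -0.02 and 0.04, and the members' bar lies at -0.24.

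The small leucine-rich proteoglycan genes among the members did not pass. Bgn (feature 10600169, chromosome X) read 9.86, 9.76 and 9.49 in Mkl2-/- and 9.85 and 9.90 in wild type. Mkl2-/- replicate 1 was level with the wild-type arrays and replicate 3 was low, so the genotypes overlapped. The difference was -0.17 ± 0.13 (SE, n = 3 and 2; 95% interval -0.53 to 0.18; limma adjusted p = 0.429). Dcn (feature 10365974, chromosome 10) read 7.64, 7.66 and 7.71 in Mkl2-/- and 7.75 and 7.98 in wild type, all a little above background. The genotypes stood 0.04 apart, and the difference of -0.20 ± 0.08 (SE; 95% interval -0.42 to 0.03) did not pass (limma adjusted p = 0.275). In the wider family of 18 lecticans and small leucine-rich proteoglycans, 0 genes passed limma's test in either direction, 0 had an unadjusted p under 0.05, and 9 had both group means below background. Differences in this family ran from -0.06 to 0.12, with a median of 0.04. The smallest p-values belonged to the aggrecan gene Acan (0.12), Chad (0.07), the nyctalopin gene Nyx (0.07) and Chadl (0.09).

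Promoter sequences are shown for the member that was lower in Mkl2-/- and had an entry, Sparc, and for the member with the opposite sign, Vcan. They come from RefSeq, build GRCm38.p6, and run 5′ to 3′ on the gene's strand from 250 bases before the annotated start, with the 50 bases from the start onward in capitals. Sparc lies on the minus strand at chr11:55420031-55420330 and Vcan on the minus strand at chr13:89742463-89742762.
Sparc: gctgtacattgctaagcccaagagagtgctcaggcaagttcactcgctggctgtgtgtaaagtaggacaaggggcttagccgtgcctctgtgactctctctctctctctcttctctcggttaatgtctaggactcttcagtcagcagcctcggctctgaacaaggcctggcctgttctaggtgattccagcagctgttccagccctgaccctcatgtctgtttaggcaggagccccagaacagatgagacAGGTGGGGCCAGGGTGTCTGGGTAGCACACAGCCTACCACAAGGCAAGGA
Vcan: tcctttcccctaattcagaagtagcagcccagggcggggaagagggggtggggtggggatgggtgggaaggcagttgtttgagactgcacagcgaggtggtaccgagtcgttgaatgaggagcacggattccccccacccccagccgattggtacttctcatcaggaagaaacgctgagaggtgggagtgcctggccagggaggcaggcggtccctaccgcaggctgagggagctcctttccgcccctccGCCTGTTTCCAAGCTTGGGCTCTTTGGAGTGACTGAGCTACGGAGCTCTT
The table held 10 entries for 7 of the 10 members. Has2, Fn1 and Dcn had none and were not searched, and Spp1, which had entries, has no expression value. On both strands 3 motifs were searched: the CArG box bound by SRF, TGANTCA (bound by Fos and Jun family factors) and GGAATG (bound by TEAD factors). They were found in 0 of these 10 entries, beside 1.63%, 7.81% and 14.7% of all 32851 promoter entries, which says only that these letters are not in these windows.

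Genes next to the members on their chromosomes were compared as well, since Fn1 lies on a chromosome where many genes were lower in Mkl2-/- cells. The 24 nearest genes above background around Fn1 had a median difference of -0.19, and 6 of them were lower and 0 higher past the threshold. Over all 757 other genes of chromosome 1 above background the median was -0.17, with 229 lower and 7 higher. For these counts and those below, the shares over all genes tested were 6.28% lower and 2.99% higher. Fn1 was lower than 22 of its 24 neighbours, by 0.42 relative to their median. Its closest neighbours were Atic (-0.18; limma adjusted p = 0.023) and Apol7d (0.00). What part of the Fn1 difference goes with its chromosome was not tested. Around Has2 the median of the 24 neighbours was -0.02, 3 were lower and 2 higher past the threshold, and none was as low as Has2. The adjoining genes Sntb1 (0.05) and Zhx2 (-0.09) did not pass. Around Sparc the median was -0.01, 3 neighbours were lower and 0 higher, and the adjoining genes Fat2 (0.04) and Atox1 (0.44; adjusted p = 0.070) did not pass. The other members had neighbour medians between -0.06 and 0.01, and Vcan was higher than all 24 of its neighbours. Chromosome X holds Bgn and also Msn. Its 408 genes above background besides Bgn had a median of -0.05, with 86 lower and 13 higher.

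**Figure D4:**
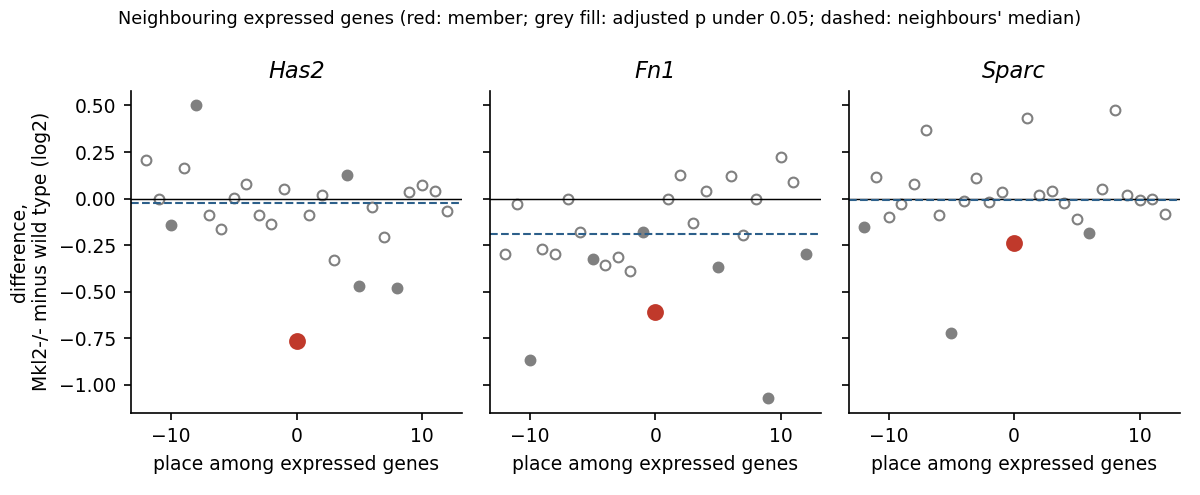
Differences on the log2 scale (vertical axis) of Has2, Fn1 and Sparc (red) and of the 12 nearest genes above background on either side (horizontal axis: place in gene order). Grey filled points passed an adjusted p of 0.05, and the dashed line is the neighbours' median, which is -0.02 for Has2, -0.19 for Fn1 and -0.01 for Sparc.

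Marker lists of other cells that make these matrix proteins were followed on the same arrays. Feeder fibroblasts express fibronectin, Sparc, biglycan and decorin, and of 29 fibroblast markers measured 3 were lower, 1 higher and 25 did not pass, with a median of -0.02. That is 10.3% lower and 3.45% higher, beside 6.28% and 2.99% of all genes. Their summed level, as the sum of unlogged values, was 9717 to 9904 on Mkl2-/- arrays and 11261 to 11399 on wild-type arrays. Bright genes weigh most in such a sum. It was not repeated without Fstl1, whose mean was 10.08 in Mkl2-/- and 10.96 in wild type. Fstl1 (-0.88), Mmp2 (-0.26) and Pdgfrb (-0.28) fell and Twist1 (0.31) rose, while the collagen genes Col1a1 (-0.29), Col1a2 (-0.08) and Col3a1 (0.05) did not pass. Below background on all 5 arrays were Dpt, Fap, Mmp3, Islr and Meox2. Extraembryonic endoderm, which makes much fibronectin and Sparc, was represented by 21 markers. Of these 7 rose (33.3%), 1 fell and 13 did not pass, with a median of 0.19. Their summed level was 15634 to 17787 in Mkl2-/- and 11588 to 11842 in wild type. Without Srgn, the gene of the proteoglycan serglycin, it was 12117 to 13179 in Mkl2-/- and 11465 to 11709 in wild type. Srgn (at least 24.7-fold) and Cubn (at least 4.02-fold) rose, with both wild-type arrays below background, Lama1 rose by 1.45, Lrp2 fell by 0.57, and Thbd, Afp and Ttr lay below background on all arrays. Named after their values were seen, Gata4 (0.93), Gata6 (0.935), Pdgfra (0.75) and Lamb1 (0.19) also rose. Sox17 (0.33), Sox7 (0.38) and Foxa2 (0.00) did not pass. The embryonic stem cell markers rose in 3 and fell in 3 of 18 cases (16.7% each). Their summed levels were 54150 to 55220 in Mkl2-/- and 52928 to 53885 in wild type. Their mean log2 level ran the other way, at 10.83 to 10.88 in Mkl2-/- and 10.93 in wild type. Nanog (-1.14) and Klf4 (-0.69) fell, Fgf4 (0.67) and Dppa5a (0.49) rose, and Pou5f1 differed by 0.03. Of 9 macrophage and blood markers 0 passed and 0 had an unadjusted p under 0.05 (limma; Itgam, Laptm5, Csf1r and Cd14 had the smallest p-values, with differences of 0.08, -0.20, 0.09 and 0.04); 7 of them, Ptprc among them, lay below background on all arrays. The part of these cells in the differences of Has2, Fn1 and Sparc was not tested.

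**Figure D5:**
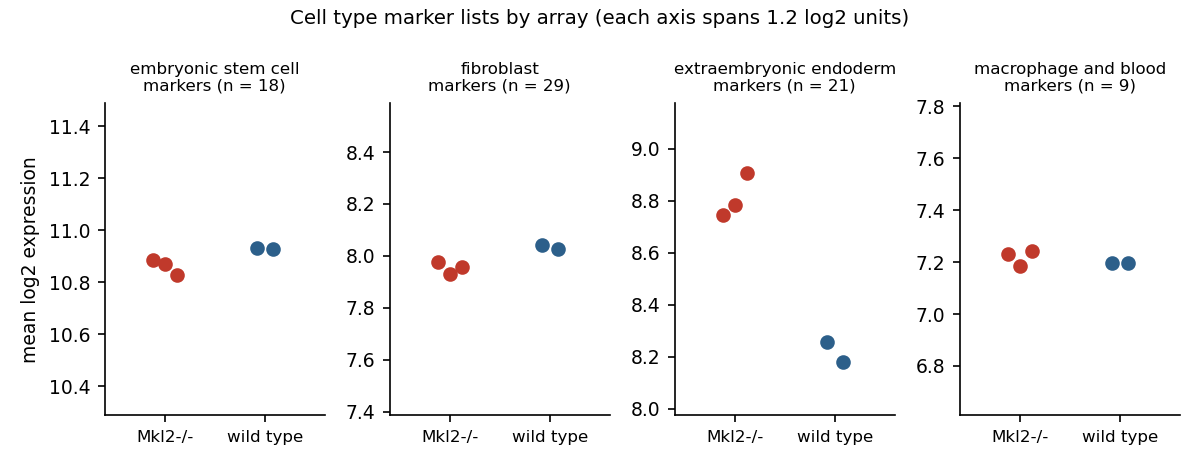
Mean log2 expression (vertical axes, each spanning the same length) of 4 marker lists on the 3 Mkl2-/- arrays (red) and the 2 wild-type arrays (blue). Points are arrays. The endoderm list lies between 8.74 and 8.91 in Mkl2-/- and between 8.18 and 8.26 in wild type, and the fibroblast list between 7.93 and 7.98 in Mkl2-/- and between 8.03 and 8.04 in wild type. The embryonic stem cell list lies between 10.83 and 10.88 in Mkl2-/- and at 10.93 in wild type.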

How the data were processed

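Total RNA of 3 Mkl2-/- and 2 wild-type cultures was hybridised to Affymetrix whole-transcript arrays, 1 array each. The authors deposited log2 expression values which, per the submitters' processing notes, come from RMA as run by Affymetrix Expression Console 1.1. The values have 2 decimals and array medians of 7.94 to 7.98; 0 columns were left unused. A platform annotation gave exactly 1 symbol to 21789 of 35556 features (1621 had several symbols, 12146 had none), and 21698 of these matched the RefSeq gene table (GRCm38.p6) by Entrez identifier, which served for names, chromosomes and gene order. The brightest feature per gene was kept. The genotypes were tested by limma 3.58.1 with its lmFit and eBayes functions (R 4.3.3; 3 residual and 0.885 prior degrees of freedom) with Benjamini-Hochberg adjustment over 19938 genes. In 766 genes all arrays held the same value, and limma offsets such zero variances. RMA compresses differences of dim genes, and the number of arrays limits precision. Marker and pathway lists, described by counts and medians, hold the genes measured of each. From each list up to 4 genes, those with the smallest p, are named. The members, the targeted gene and the genes adjoining members past the threshold are named too. Other list genes, such as Itgav, Has1, Ccn2, Tnxb, Col1a1 and Pou5f1, are also named and were not picked by that rule. The members and lists were chosen with earlier results of these data known. The fit was tested on simulated data. The labels name no scan dates or batches. Planned searches of protein sequences were not made. Figures were drawn with matplotlib 3.10.9. Alternatives are given in the closing section.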

Additional observations from a re-analysis of the deposited data

How the results depend on the processing

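The 9 measured members kept the sign of their differences under every alternative run. The count of members past the threshold was 3, and became 5 after quantile normalization and 5 after cyclic loess (Has2, Fn1, Sparc and Cd44 lower, Vcan higher), 1 without moderation of variances (Has2, adjusted p = 0.049, against 0.077 for Fn1 and 0.127 for Sparc), and 2 with a 1.5-fold minimum (Has2 and Fn1). It ranged from 0 to 3 over the fits that left out 1 array each. Over all genes the 1848 calls became 3234 after quantile normalization, 2982 after cyclic loess, 298 without moderation and 504 with a 1.5-fold minimum, and ranged from 0 (without wild-type replicate 2; 4411 genes with an unadjusted p under 0.05 by limma, smallest adjusted p 0.058) to 964 over the fits without 1 array. Each such fit also has fewer residual degrees of freedom. Median centring, removal of dim genes (Postn among them), robust eBayes with a trend, weights per array and both other choices of feature left the members' count at 3. With the replicate number as a block there were 0 calls by limma over all genes and 0 among the members, with 1 residual degree of freedom, 3827 genes with an unadjusted p under 0.05 and a smallest adjusted p of 0.161. The difference of replicates 1 and 2 correlated at 0.02 between the genotypes over 19938 genes. That value rests on 1 difference per genotype and leaves out Mkl2-/- replicate 3. It cannot decide whether samples of the same number shared a batch. The call counts of the 4 related lists ranged from 0 to 9 over the alternatives, and the lecticans and small leucine-rich proteoglycans stayed at 0 in each.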
